A study of Mus musculus with 6 samples.

Results

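The 50 genes described here encode the subunits of the receptors for GABA, glycine and glutamate, the fast and modulatory transmitters of the central nervous system. They were chosen by symbol, with no threshold on level, among the 21843 protein-coding genes of a count table of 45703 genes. All 50 genes named by that pattern were in the table: 19 subunits of GABA-A receptors, 2 of GABA-B receptors, 5 of glycine receptors, 4 of AMPA, 5 of kainate and 7 of NMDA receptors, and 8 metabotropic glutamate receptors. The samples were 6 replicate cultures of cells from dorsal root ganglia (DRG) of wild-type C57BL/6 mice aged 4 to 6 weeks, profiled by poly-A RNA sequencing after 7 days in vitro. The cells were dissociated enzymatically and plated on poly-L-lysine and kept in DMEM/F12 containing 10% fetal calf serum, 10 ng/ml EGF and the same amount of FGF; each sample pools RNA of 2 dishes. All samples carry the same genotype and treatment and the same age range, with no age given per sample, so there was no contrast between conditions. The study calls the samples biological replicates, but the labels do not tie them to animals or litters, so p-values measure the spread between these 6 samples.

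GABA-A and glycine receptors are chloride channels, and AMPA, kainate and NMDA receptors are cation channels; all are assembled from several subunits. GABA-B and metabotropic glutamate receptors signal through G proteins, and a working GABA-B receptor needs both of its subunits. Primary sensory neurons carry GABA-A, GABA-B and kainate receptors on their cell bodies and central terminals, where these receptors adjust transmitter release onto spinal neurons, and peripheral glia also respond to both transmitters.

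The libraries held 20070639 to 22968642 counts, and scaling factors by the trimmed mean of M-values (TMM) lay between 0.977 and 1.02. Markers of several cell types were present. All 12 neuron markers, all 7 glial lineage markers (Schwann cells and satellite glia) and 6 of 7 fibroblast markers reached a level of 1 CPM, the count scaled to a common library total, in every library, with summed levels of 644 to 1594, 4414 to 6497 and 3339 to 13977 CPM. Macrophage markers did so for 6 of 9 genes (17.4 to 189 CPM in sum), endothelial markers for 2 of 6 (8.14 to 116 CPM) and mural cell markers for 4 of 7 (55.6 to 1056 CPM). The endothelial marker Cldn5 was at 0 in replicates 2, 3 and 6 and the mural marker Kcnj8 in replicate 1. Replicate 5 stood apart: it had the highest fibroblast, macrophage, endothelial and mural sums and the lowest neuronal and glial sums, and replicate 1 had the lowest fibroblast, macrophage, endothelial and mural sums. In such bulk samples, fewer cells of a type and less RNA per cell cannot be told apart.

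Receptor genes were transcribed in part. A CPM of at least 1 in all 6 libraries was reached by 17 of the 50 genes (34%), against 55.8% of all protein-coding genes. Another 12 never exceeded 3 counts, and 6 of these had none in any library, while 21 lay between. The 12 are 24% of the 50, against 29.6% of all protein-coding genes at or under 3 counts. A count of 0 allows up to 3 counts, or 0.131 to 0.149 CPM. The median over the 50 genes of the mean level was 0.0807 CPM per kilobase (kb) of combined exon length, against 1.40 CPM per kb over all protein-coding genes. Genes are ranked against each other on this per-kb scale, which divides by all annotated exons, including exons these cells may not use.

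Kainate receptor genes took 48.9% ± 4.12 of the summed CPM per kb of the 50 genes (SD, n = 6), GABA-B genes 27.0% ± 3.28, AMPA genes 14.2% ± 1.87, GABA-A genes 4.83% ± 1.17, NMDA genes 2.14% ± 0.222, glycine genes 1.96% ± 0.382 and metabotropic glutamate genes 0.995% ± 0.197. Grik3, Gabbr1, Gria3, Grik5 and Grik2, in this order, held 79.7% ± 3.16 of the sum. The first 5 positions kept their order in all 6 libraries. Further down, neighbours changed places: Grik2 exceeded Gabbr2 in 4 of 6 libraries, Gabbr2 exceeded Gria4 in 4, Glrb exceeded Grik1 in 4, and Gria1 exceeded Grik4 in 3, so their order is not settled by these samples.

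**Figure D1:**
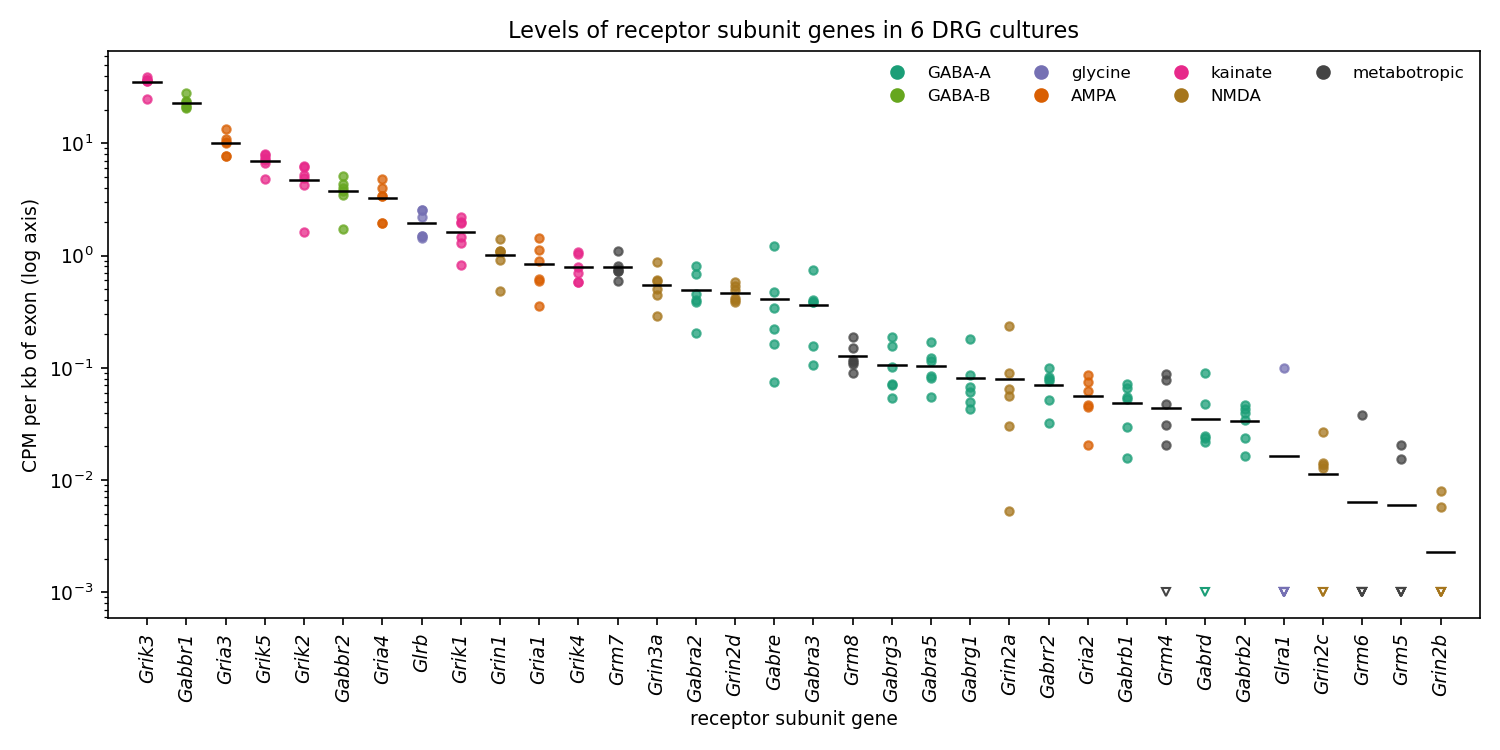
Each column is a receptor subunit gene described here with more than 3 counts in at least 1 library, ordered by mean, and the log axis gives CPM per kb of exon. Points are the 6 cultures, bars their mean, and open triangles at the bottom mark libraries with 0 counts. The level falls from 34.9 CPM per kb for Grik3 to values near 0 for Grin2b.

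Start-site sequences are shown for the gene that led the list (Grik3), for both GABA-B genes and for a gene without a single count (Gabra6), because the level of the receptor genes can be set beside the CG content of their promoters. The sequences are RefSeq's on GRCm38.p6, run 5′ to 3′ on the gene's strand from 250 bases before to 50 after an annotated start, and capitals mark CG dinucleotides.

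Grik3 promoter (chr4:125490446-125490745, plus strand): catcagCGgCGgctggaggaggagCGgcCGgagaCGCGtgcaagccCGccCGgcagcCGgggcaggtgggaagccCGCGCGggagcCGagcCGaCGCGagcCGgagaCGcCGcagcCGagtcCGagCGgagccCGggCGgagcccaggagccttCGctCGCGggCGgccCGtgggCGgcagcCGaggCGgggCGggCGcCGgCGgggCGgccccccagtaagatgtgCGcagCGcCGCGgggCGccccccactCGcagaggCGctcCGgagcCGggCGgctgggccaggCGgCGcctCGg

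Gabbr1 promoter (chr17:37045716-37046015, plus strand): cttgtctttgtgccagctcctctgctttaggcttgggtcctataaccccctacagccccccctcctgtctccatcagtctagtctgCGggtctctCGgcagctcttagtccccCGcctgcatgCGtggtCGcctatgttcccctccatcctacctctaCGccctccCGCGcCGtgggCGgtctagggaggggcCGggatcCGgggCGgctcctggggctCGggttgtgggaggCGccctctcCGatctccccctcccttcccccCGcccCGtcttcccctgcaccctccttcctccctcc

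Gabbr2 promoter (chr4:46991665-46991964, minus strand): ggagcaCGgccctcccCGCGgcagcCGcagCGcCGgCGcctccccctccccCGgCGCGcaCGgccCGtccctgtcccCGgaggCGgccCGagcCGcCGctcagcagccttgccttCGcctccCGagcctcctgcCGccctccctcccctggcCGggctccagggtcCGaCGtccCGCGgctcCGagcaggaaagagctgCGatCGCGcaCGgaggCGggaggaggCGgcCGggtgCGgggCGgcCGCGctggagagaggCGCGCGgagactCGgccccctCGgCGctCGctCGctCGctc

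Gabra6 promoter (chr11:42321023-42321322, minus strand): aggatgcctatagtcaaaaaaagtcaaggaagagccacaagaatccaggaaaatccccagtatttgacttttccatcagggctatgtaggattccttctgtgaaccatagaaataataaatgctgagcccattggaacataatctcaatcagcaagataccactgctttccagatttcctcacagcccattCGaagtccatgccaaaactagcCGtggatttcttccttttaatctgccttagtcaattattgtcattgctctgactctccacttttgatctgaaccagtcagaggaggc

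The windows held 50, 18, 46 and 2 CG dinucleotides in this order. The Grik3 window belongs to a start 437 bases inside the first base of the gene in the count table; the other 3 windows are placed on the table's own gene start. Promoter entries matched 36 of the 50 genes. Each match took the annotated start nearest to the gene start in the count table, at any distance. The largest distances were 80957 bases for Gabra5, 5400 for Gabrr2, 4513 for Grin2d, 3325 for Grik5, 1407 for Grik2 and 1392 for Gria2. All 12 matched genes with at least 1 CPM in every library had 10 or more CG (median 25.5), as did 84.9% of all protein-coding genes at that level. Of the 12 matched genes with at most 3 counts, 4 had 10 or more CG (median 8.5), against 12.3% of all protein-coding genes in that class and 57.2% of all 17492 matched protein-coding genes. High CG content did not go with a high level in every case: Grm2 had 22 CG and no count in any library, and Gria2 had 26 CG at 0.0559 CPM per kb. Of the 6 genes without a count, the one shown, Gabra6, had the lowest CG count. Besides Grm2, the others had 3 (Gabrr3 and Glra4), 4 (Gabrp) and 9 CG (Gabrr1). No test was made of these counts.

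**Figure D2:**
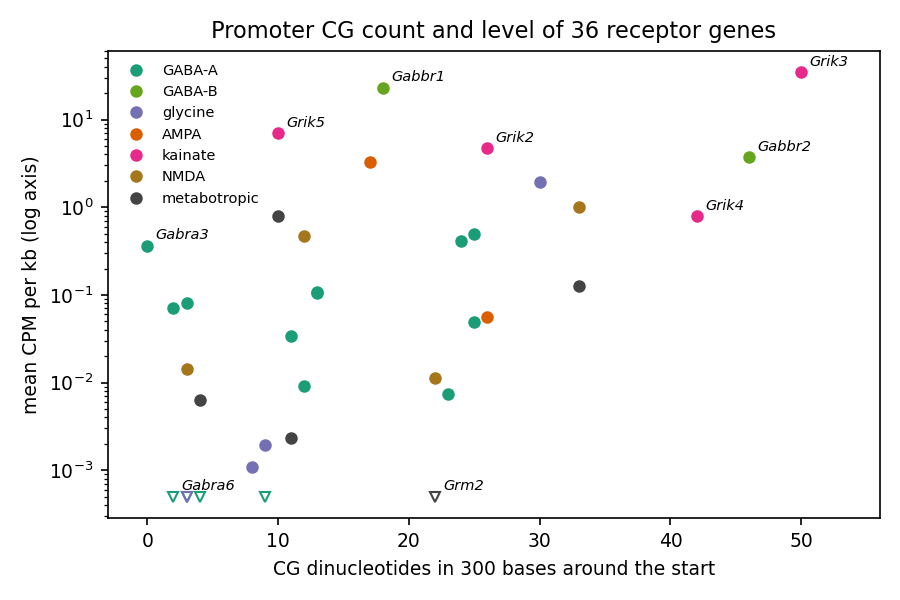
The horizontal axis counts CG dinucleotides in 300 bases around the annotated start nearest to the gene start in the count table, for 36 receptor genes. The log vertical axis gives the mean CPM per kb of 6 cultures. Colours mark receptor families and open triangles genes without a count. Grik3 lies at the upper right with 50 CG, whereas Grm2 with 22 CG had no count.

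All 5 kainate receptor genes reached 1 CPM in every library, as did both GABA-B genes. Grik1, Grik2 and Grik3 encode subunits that can form channels by themselves, and Grik4 and Grik5 encode partners that raise the affinity for kainate but need one of the former. Grik3 (chromosome 4, 125490259 to 125714173; GRCm38.p6, as for all coordinates here) ranked 1747 of 21843 protein-coding genes per kb. Its lowest, median and highest levels over the libraries were 235, 342 and 372 CPM, with a mean of 34.9 ± 5.09 CPM per kb (SD, n = 6). Replicate 5 was the low library and the other 5 lay within 339 to 372 CPM. A pseudogene, Ftl2-ps, lies within the span of Grik3 on the same strand and had 1316 to 1835 counts of its own, against 4916 to 7794 for Grik3, so any reads shared between them could move this level.

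Grik5 (chromosome 7, 25009849 to 25075694) had lowest, median and highest levels of 53.7, 81.5 and 90.6 CPM and a mean of 6.98 ± 1.19 CPM per kb (SD, n = 6). Its span overlaps Zfp574 on the other strand, which had 372 to 510 counts against 1124 to 1989 for Grik5, and the strand setting of the counting is not given in the sources used here. Grik2 (chromosome 10, 49093680 to 49790161) ranged most: 24.4 CPM at its lowest, 75.6 at the median and 95.5 at its highest, a mean of 4.75 ± 1.73 CPM per kb (SD, n = 6). Replicate 5 was again the low library for both, by a wide gap in Grik2, where the next lowest library had 64.5 CPM.

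Grik1 (chromosome 16, 87895901 to 88290863) moved differently, with 5.24, 10.9 and 14.1 CPM as lowest, median and highest values, a mean of 1.62 ± 0.520 CPM per kb (SD, n = 6), and its low library in replicate 2. Grik4 (chromosome 9, 42518182 to 42945000) had 5.11, 6.58 and 9.58 CPM and a mean of 0.796 ± 0.220 CPM per kb (SD, n = 6). The partner Grik5 exceeded Grik1 per kb by 2.09 ± 0.691 on the log2 scale (SD, n = 6), in 6 of 6 libraries (two-sided exact sign-flip permutation p = 0.0312, the smallest that 6 libraries allow; adjusted over 8 pairs, 0.0312). Within the family Grik3 made up 71.3% ± 1.43 of CPM per kb and Grik4 with Grik5 15.8% ± 0.667, and both shares stayed within narrow ranges (70.0% to 73.5% and 14.8% to 16.7%). The share of Grik2 ran from 4.80% in replicate 5 to 12.04% in replicate 2.

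AMPA receptors mediate most fast excitation in the brain, and the Gria2 subunit, after RNA editing, keeps calcium out of the channel. Gria3 (chromosome X, 41400819 to 41678601) led this family with lowest, median and highest levels of 47.5, 62.7 and 83.4 CPM and a mean of 10.1 ± 2.17 CPM per kb (SD, n = 6). Gria4 (chromosome 9, 4417893 to 4796234) followed with 12.3, 21.7 and 30.9 CPM and a mean of 3.25 ± 1.15 CPM per kb. Both had their highest value in replicate 6 and low values in replicates 1 and 5.

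Gria1 (chromosome 11, 57011571 to 57330244) had 2.29, 4.82 and 9.23 CPM as lowest, median and highest values. It had the opposite order, highest in replicates 1 and 5 and lowest in replicate 6. Gria2 (chromosome 3, 80681450 to 80804227) had only 7 to 29 counts per library, or 0.319, 0.836 and 1.34 CPM as lowest, median and highest values. It made up 0.399% ± 0.153 of the CPM per kb of the AMPA genes (SD, n = 6), against 70.7% ± 1.32 for Gria3 and 22.3% ± 4.00 for Gria4. Gria2 was below Gria1 in 6 of 6 libraries (difference -2.49 ± 0.696 log2 CPM per kb, SD, n = 6; two-sided exact sign-flip permutation p = 0.0312, adjusted 0.0312). The annotated exons of Gria2 sum to 15409 bases against 6391 for Gria1, which lowers its per-kb value. Without division by length the difference was -2.47. The pseudocount of 0.1 exceeds the mean of Gria2, 0.0559 CPM per kb, and so shrinks the per-kb difference. The closeness of these values therefore does not show that length has little effect. Adarb1, an enzyme that edits Gria2 transcripts, was present at 36.5 ± 3.89 CPM (SD, n = 6), with fractional counts in all 6 libraries.

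**Figure D3:**
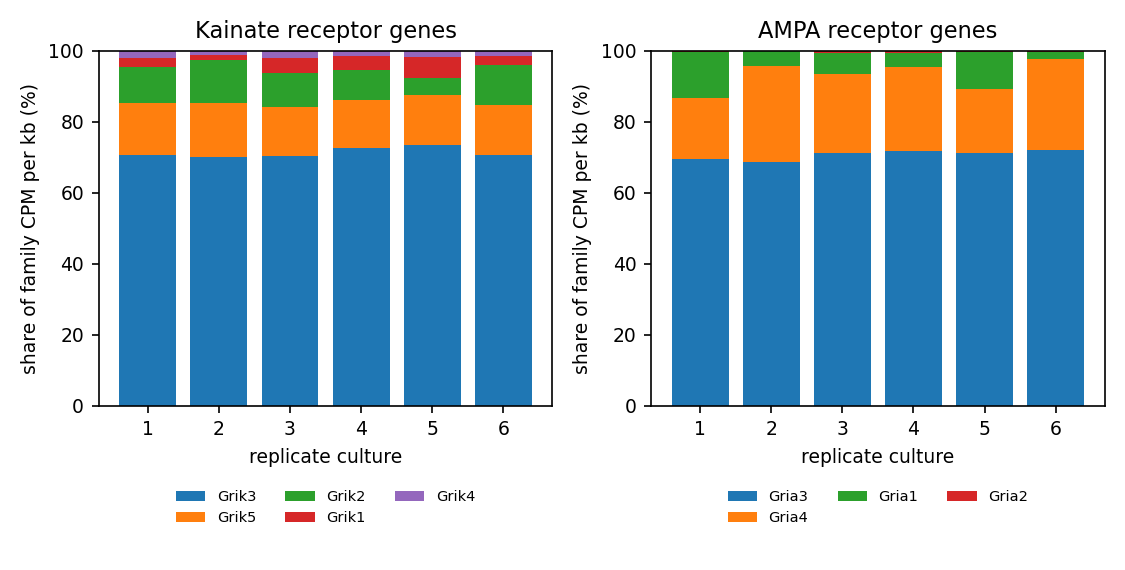
Stacked bars give, for each of the 6 cultures, the share of each gene in the summed CPM per kb of its family, for kainate and AMPA receptor genes. Grik3 and Gria3 take 70.0% to 73.5% and 68.7% to 72.0% of their families in every culture, while Grik2 falls to 4.80% in replicate 5.

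Of the NMDA receptor genes, the obligatory subunit Grin1 (chromosome 2, 25291177 to 25319187) had lowest, median and highest levels of 2.10, 4.74 and 6.09 CPM and a mean of 1.01 ± 0.303 CPM per kb (SD, n = 6), with its low in replicate 5. Grin3a, a subunit that lowers calcium flow, reached 0.552 ± 0.198 CPM per kb and Grin2d 0.468 ± 0.0780 CPM per kb (SD, n = 6 each). The glutamate-binding Grin2b, a leading partner of Grin1 in forebrain, had 0 counts in 4 libraries and at most 4 counts in the other 2, Grin2c at most 6 counts and Grin3b at most 3. Grin1 exceeded Grin2b by 3.38 ± 0.493 log2 CPM per kb in 6 of 6 libraries (SD, n = 6; two-sided exact sign-flip permutation p = 0.0312, adjusted 0.0312), a size that depends on the pseudocount because Grin2b is near 0.

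Grin2a (chromosome 16, 9567901 to 9996083) was named after its values were seen, since few members spread as widely. It had 2.5, 40.5, 25, 26.5, 100 and 13 counts in replicates 1 to 6, which is 0.109, 1.84, 1.15, 1.32, 4.78 and 0.622 CPM. Without replicate 5 its mean fell from 1.64 to 1.01 CPM. The summed Grin2 genes per kb amounted to between 33.9% and 56.8% of Grin1 in replicates 1, 3, 4 and 6. They amounted to 67.0% of Grin1 in replicate 2 and to 169.8% in replicate 5. Replicate 5 had the lowest Grin1 level, 0.481 CPM per kb, with Grin2d at 0.576 and Grin2a at 0.234 CPM per kb.

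GABA-B receptors pair Gabbr1, which binds GABA, with Gabbr2, which couples to the G protein and brings Gabbr1 to the surface. Gabbr1 (chromosome 17, 37045966 to 37074305) had lowest, median and highest levels of 122, 132 and 163 CPM and a mean of 23.1 ± 2.59 CPM per kb (SD, n = 6). It was the second gene of the 50 and the steadiest of the 17 transcribed in all libraries, with a coefficient of variation of 11.2%. Gabbr2 (chromosome 4, 46662318 to 46991714) had 9.61, 21.7 and 28.8 CPM and a mean of 3.73 ± 1.15 CPM per kb, with its low in replicate 2 and its high in replicate 3. Gabbr1 exceeded its partner in 6 of 6 libraries, by 2.66 ± 0.463 log2 CPM per kb (SD, n = 6; two-sided exact sign-flip permutation p = 0.0312, adjusted 0.0312).

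GABA-A receptors usually combine alpha and beta subunits with a gamma, delta or epsilon subunit. Of the 19 genes, 2 passed 1 CPM in every library, 11 lay between and 6 had at most 3 counts. Among beta genes, Gabrb2 had 3 to 9 counts per library. Gabrb1 had 5 to 24 counts.

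Among alpha genes, Gabra2 had lowest, median and highest levels of 1.14, 2.40 and 4.54 CPM (0.491 ± 0.222 CPM per kb, SD, n = 6). Gabra3 followed Gabra2 at 0.365 ± 0.229 CPM per kb, Gabra5 had 5 to 14 counts, Gabra4 at most 2, and Gabra6, a gene of cerebellar granule cells, none. Among gamma genes, Gabrg1 had lowest, median and highest levels of 0.433, 0.639 and 1.80 CPM, with its high in replicate 3, and Gabrg3 0.526, 0.847 and 1.86 CPM, with its high in replicate 5.

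The epsilon gene Gabre and Gabra3, neighbours on chromosome X, shared a pattern and are described together after their values were seen. Gabre (72256926 to 72274828) had 0.261, 0.774, 1.2, 1.64, 4.25 and 0.574 CPM in replicates 1 to 6. Gabra3 (72432676 to 72656919) had 0.435, 0.638, 1.57, 1.64, 3.06 and 1.58 CPM. Both were lowest in replicate 1 and highest in replicate 5, and without replicate 5 the mean of Gabre fell from 1.45 to 0.891 CPM. The theta gene Gabrq in the same cluster had at most 3 counts. Summed fibroblast markers were 3339 CPM in replicate 1 and 13977 CPM in replicate 5, endothelial markers 8.14 and 116 CPM and mural markers 55.6 and 1056 CPM. The part of these cells in the levels of Gabre, Gabra3 and Grin2a was not tested.

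GABA-A genes lie in clusters on other chromosomes too. On chromosome 11, Gabrb2 lay at 0.0339 CPM per kb beside Gabra6 with no count. On chromosome 7, Gabra5 lay at 0.104 CPM per kb beside Gabrg3 at 0.107. On chromosome 5, Gabra2 at 0.491 CPM per kb lay between Gabrg1 at 0.0811 and Gabra4 with at most 2 counts, and Gabrb1 had 0.0484 CPM per kb. In the rho subunits, known from retina, Gabrr2 had 2 to 6 counts and Gabrr1 and Gabrr3 none. The delta gene Gabrd had at most 4 counts and the pi gene Gabrp none.

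Glycine receptors need an alpha subunit to form a channel, while the beta subunit Glrb binds the scaffold gephyrin. Glrb (chromosome 3, 80843598 to 80913660) had lowest, median and highest levels of 4.92, 6.35 and 8.84 CPM and a mean of 1.95 ± 0.548 CPM per kb (SD, n = 6). The 4 alpha genes together had 7 counts in all 6 libraries, against 867 counts of Glrb. Of these 7, 5 were Glra1 counts in replicate 5, and Glra4 had none. Alpha transcripts were therefore not detectable at this depth beyond a few reads.

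Metabotropic glutamate receptor genes had the smallest share of summed CPM per kb of the 7 families. Grm7, a low-affinity receptor of presynaptic terminals, had lowest, median and highest levels of 7.38, 9.22 and 13.7 CPM (0.789 ± 0.171 CPM per kb, SD, n = 6; chromosome 6, 110645349 to 111567230). It exceeded its relative Grm4 by 2.64 ± 0.3303 log2 CPM per kb in 6 of 6 libraries (SD, n = 6; two-sided exact sign-flip permutation p = 0.0312, adjusted 0.0312). Grm8 had 10 to 22 counts and Grm4 0 to 14. Grm5, a receptor that acts through phospholipase C, had at most 4 counts, Grm3 at most 1, Grm6 at most 4 and Grm2 none. For Gria2, Grin1 and Grm7, each minus its partner, a pseudocount of 1 in place of 0.1 shrank the difference by more than 1.5 times, to -0.77, 0.99 and 0.77, without changing its direction or its p. Without length scaling the difference of Grm7 and Grm4 was larger, 4.79.

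The second comparison asked whether the receptor genes differed between replicate cultures by more than counting error. Of the 50 genes, 19 passed edgeR's low-count filter and were tested with a chi-square test of 6 counts, adjusted by the Benjamini-Hochberg method over all 14998 genes kept. It called 17 of 19 (89.5%), against 76.3% of all genes kept. Grin2d was not called (adjusted p = 0.114). Grik2 had the smallest adjusted p of the 50 (4.21e-222) and Gabrg3 the largest among those called (8.47e-05). Without the filter it called 28 of the 44 genes with a count, against 50.2% of all such genes, Gabre (adjusted p = 2.47e-30) and Grin2a (adjusted p = 1.72e-35) among them. Because the test gains calls with depth, the size of the spread was also taken: edgeR's biological coefficient of variation was 0.380 for Grik2, against 0.152 for genes of its abundance, and 0.119 for Gabbr1, against 0.154. It lay above that trend for 11 of the 19 genes, against 20.4% of all genes kept. The median coefficient of variation of CPM over the 17 genes with at least 1 CPM in all libraries was 28.1%, against 10.98% for the 12181 protein-coding genes that reached this level. These sets were not matched for level, and edgeR's trend was higher for low genes, 0.293 for Grin2d against 0.166 for Grik3.

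**Figure D4:**
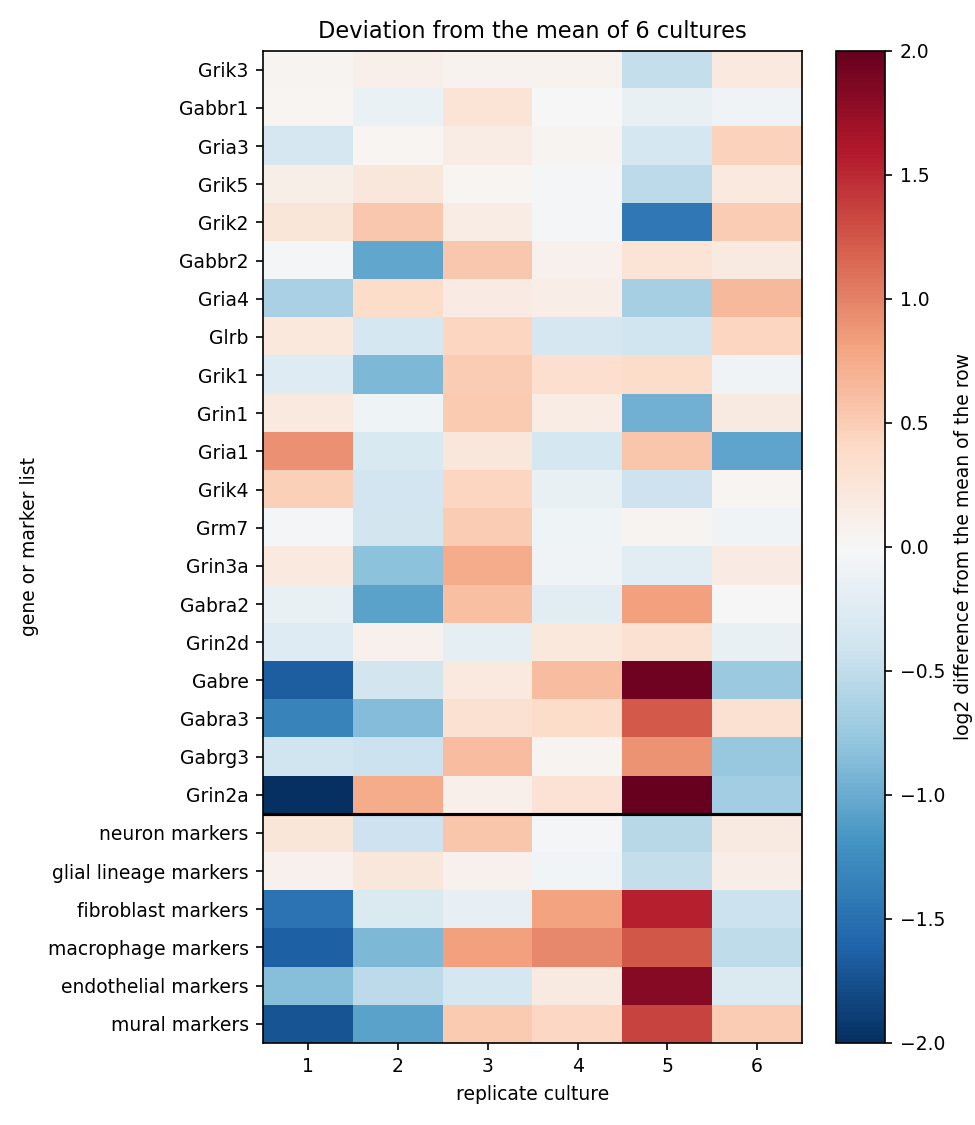
Rows are the receptor genes described here with a mean of at least 1 CPM, ordered by level per kb, and below the line the 6 marker scores; columns are the 6 cultures. Colours give the log2 difference from the mean of the row (0.1 CPM added for genes), with differences beyond 2 shown in the end colours. Grik3, Grik5 and Grik2 are low in replicate 5, as are the glial lineage markers, while Gabre, Gabra3 and Grin2a are high there.

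The third comparison set the 13 receptor genes with a mean of at least 5 CPM beside marker scores, the mean log2 TMM-scaled CPM of a marker list, across the 6 libraries. Correlations were computed for all 14998 genes kept and 4 lists, 59992 relations in all. The smallest p that 6 libraries allow is 0.00139, so many relations must reach it together before any can pass the adjustment. After adjustment over all of them, 0 relations passed for any gene by Pearson's r, and the smallest adjusted p of a receptor gene was 0.163. At an unadjusted exact permutation p under 0.05, 3 of 13 passed with the glial lineage score (23.1%), 4 with the neuron score (30.8%), 2 with the macrophage score (15.4%) and 0 with the fibroblast score. Over all genes kept the shares were 15.9%, 11.3%, 15.9% and 20.2%. By Spearman's rho the counts were 3, 3, 0 and 0 of 13, against 5.01%, 9.82%, 12.2% and 9.88% of all genes kept. Some scores were related to each other (r = -0.795 between glial lineage and fibroblast, 0.509 between glial lineage and neuron, 0.883 between fibroblast and macrophage) and others little (-0.158 between neuron and macrophage), so relations with different lists are not independent.

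Of these 13 genes, the 3 with the highest Pearson correlation with the glial lineage score were kainate receptor genes. The other kainate receptor genes, Grik4 and Grik1, had r of 0.440 and -0.580. By rank, the AMPA gene Gria4 (rho = 0.886, exact permutation p = 0.0333, adjusted 0.361) stood above Grik3, and Gria3 equalled Grik3 at 0.771. Grik2 gave r = 0.990, with an exact permutation p of 0.00278 (adjusted 0.163). Its rank correlation was 0.943, with an exact permutation p of 0.0167 (adjusted 0.278). For Grik5, r was 0.985 (exact permutation p = 0.00278, adjusted 0.163) and rho 0.943. When replicates 4 and 5, whose scores lay farthest from the median, were left out, r was 0.857 for Grik2 and 0.838 for Grik5. For Grik3, r was 0.952 (exact permutation p = 0.0278, adjusted 0.265) and rho 0.771 (exact permutation p = 0.103, adjusted 0.485), and r fell to 0.549 without these libraries, so that relation rests on them. All genes of this paragraph but Grik2, like those named for the neuron score, were singled out after their values were seen.

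With the neuron score, genes with an unadjusted p under 0.05 included Grik4 (r = 0.913), Gabbr1 (r = 0.893) and Glrb (r = 0.863), with r of 0.761, 0.855 and 0.734 without replicates 2 and 5 (exact permutation p = 0.0194, 0.00972 and 0.0389, adjusted 0.245, 0.212 and 0.287). Their rho values were 0.943, 0.943 and 0.771 (exact permutation p = 0.0167, 0.0167 and 0.103, adjusted 0.278, 0.278 and 0.485). Grik2, Grik3 and Grik5 had r of 0.509, 0.556 and 0.438 with the neuron score. The difference between these correlations was not tested.

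With the fibroblast score the largest relation was that of Grik5, r = -0.805 (exact permutation p = 0.0542, adjusted 0.318) and rho = -0.771 (exact permutation p = 0.103, adjusted 0.485), with r = -0.772 without replicates 1 and 5. Without replicate 5 alone, r was -0.513 (exact permutation p = 0.383). With the macrophage score it was that of Grik1, r = 0.797 (exact permutation p = 0.0472, adjusted 0.305) and rho = 0.771 (exact permutation p = 0.103, adjusted 0.485), with r = 0.905 without replicates 1 and 5. Grik5 was the other gene with an unadjusted p under 0.05 there, r = -0.739 (exact permutation p = 0.0486, adjusted 0.307). No culture or sequencing batch is labelled, so within-batch values could not be given.

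**Figure D5:**
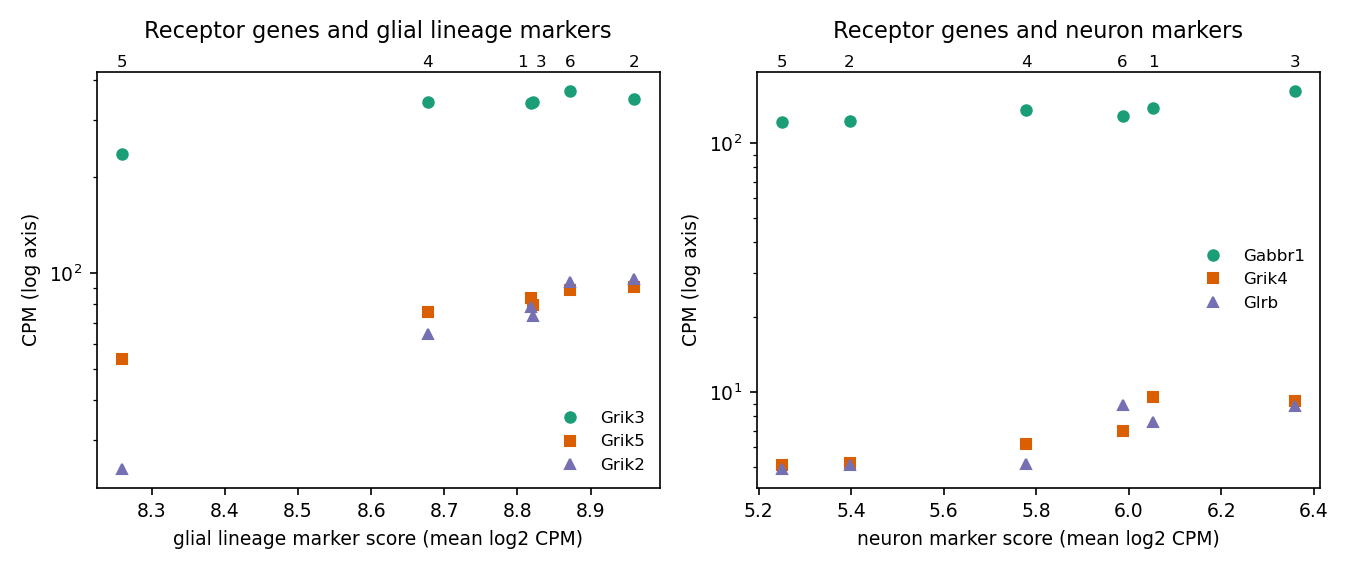
Each point is a culture, numbered along the top; the left panel sets CPM of Grik3, Grik5 and Grik2 (log axis) beside the glial lineage marker score, and the right panel Gabbr1, Grik4 and Glrb beside the neuron marker score. Replicate 5 lies at the low end of both scores, and Grik2 falls to 24.4 CPM there.

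A list of 69 genes that make, move or anchor these transmitters and receptors gave the setting. Genes outside the 2 highest of each role by CPM were named here after their values were seen. Of the 69, 46 reached 1 CPM in every library, against 55.8% of all protein-coding genes, and 5 had at most 3 counts, against 29.6%. Of the 50 kept by the filter, 47 varied beyond counting noise, against 76.3% of all genes kept. GABA synthesis was nearly missing: Gad1 had at most 1 count, Gad2 at most 7, and the vesicular GABA and glycine transporter Slc32a1 none. Of glutamate handling, genes of glutamine synthesis and of vesicular loading were transcribed. Glul, which makes glutamine from glutamate, averaged 71.0 ± 11.1 CPM (SD, n = 6). The vesicular glutamate transporter Slc17a6 averaged 62.7 ± 20.2 CPM, with Slc17a8 at 8.88 ± 2.83 CPM, and Slc17a6 was lowest in replicate 5, at 31.6 CPM.

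Of the transporters of the plasma membrane, Slc1a4, for neutral amino acids, averaged 16.2 ± 1.16 CPM per kb and the glycine transporter Slc6a9 15.3 ± 2.16 CPM per kb (SD, n = 6), the 2 highest of their role. The GABA transporter Slc6a11 had at most 5 counts per library, and the glutamate transporter Slc1a2 2.80 ± 1.24 CPM. Slc1a2 was lowest in replicate 5, at 0.860 CPM. The chloride importer Slc12a2, which keeps chloride high in sensory neurons, averaged 156 ± 37.2 CPM, and the exporter Slc12a5 had at most 11 counts per library.

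Partners of the inhibitory receptors were transcribed in 10 of 11 cases at 1 CPM or more in all libraries. The 2 highest were Gabarap, at 229.6 ± 11.1 CPM per kb, and Gabarapl1, at 76.1 ± 9.85 CPM per kb (SD, n = 6), both of which also serve autophagy. The GABA-B auxiliary subunit Kctd12 averaged 134 ± 22.2 CPM and its relative Kctd16 27.9 ± 8.11 CPM. Of 16 AMPA and kainate receptor partners 9 reached that level, with Pick1 at 12.5 ± 2.54, the AMPA receptor auxiliary protein Cnih2 at 5.12 ± 1.81 and Neto2, an auxiliary subunit of kainate receptors, at 4.34 ± 0.904 CPM per kb the highest. The AMPA receptor auxiliary subunits Cacng7 and Cacng4 averaged 18.3 ± 5.62 and 3.39 ± 1.22 CPM, while their relatives Cacng2, Cacng3, Cacng5 and Cacng8 had at most 1.15 CPM in any library. All 11 scaffold genes of NMDA and metabotropic receptors reached 1 CPM in all libraries, with Dlg1 (21.6 ± 1.88 CPM per kb, fractional in all 6 libraries), Dlg4 (19.5 ± 0.877), Homer3 (16.4 ± 1.01) and Dlg3 (13.5 ± 1.47) the highest. The delta glutamate receptor Grid1 averaged 7.99 ± 2.48 CPM.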

How the data were processed

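The authors deposited a table of estimated counts per gene for 6 libraries, partly fractional and not scaled. Per the submitters' processing notes, bcl2fastq 2.20.0.422, cutadapt 2.5, STAR 2.7.2b and featureCounts 1.6.4 (Subread) were used with GRCm38.p6; strand and multi-mapping settings are not given in the sources used here, so reads shared by overlapping genes or copies could be split. Per the labels, the kit was stranded, RNA integrity was at least 8.7, and 15 PCR cycles were used. Of the 50 genes, 8 had a fractional count, 0 of them in all libraries. Coordinates of all 50 equal RefSeq's on GRCm38.p6.

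CPM was computed on unrounded counts and library totals; per-kb values divide by the combined exon length in the deposited table. Counts were rounded for edgeR 4.0.16 (filterByExpr, TMM, dispersions; R 4.3.3), DESeq2 1.42.0 (size factors as an alternative), the chi-square test and the relations (scipy 1.17.1). Pair differences used log2(CPM per kb + 0.1) and 64 sign patterns; relations used log2(CPM + 0.5) and 720 pairings. With 1 group, edgeR's quasi-likelihood test had no contrast to run on. The chi-square test was also run on counts simulated with counting error only, the spread that it assumes. There it recovered 196 of 200 genes changed 2-fold in 3 of 6 libraries among 14998, with 12 other calls. It made 0 calls when none was changed. This check does not cover counts with further spread between cultures. The receptor genes were taken by symbol, with no threshold on level, but that group and the other lists were picked with earlier results of these data known. Per-library values are given for the 12 genes highest per kb, the leading gene of each family and the tested pairs; other genes are named by list rank (the 2 highest of a role), as the strongest relation with a list, or as examples. Some genes of the receptor and pathway lists are not reported here by name, but stay in all counts, sums and p-value adjustments.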

Additional observations from a re-analysis of the deposited data

Results flagged for a closer look

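The CPM of 19 receptor genes that passed the low-count filter was checked for a library far from the others, by the gap to its nearest neighbour divided by the range of the 6 libraries. The ratio exceeded Dixon's critical value for 6 libraries in 1 gene, Grik3, at 0.762: replicate 5 had 235 CPM and the next lowest library 339 CPM. Chance alone would give 0.95 such results among 19. Replicate 5 also had the lowest summed glial lineage markers, 4414 CPM against up to 6497 CPM, and the highest summed fibroblast markers, 13977 CPM; their part in the low value of Grik3 was not tested.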

How the results depend on the processing

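The number of receptor genes with at least 1 CPM in all libraries was 17 and lay between 17 and 21 over all alternatives run (10 counts, 0.5 CPM, 3 of 6 libraries, TMM scaling, each replicate left out). The number varying beyond counting noise was 17 of 19. It was 28 of 44 without the filter on low counts, where 50.2% of all genes with a count were called. Among genes with whole counts it was 11 of 13, against 5819 of all 7224 such genes kept. Both changed because other genes were tested. Without single replicates the number ran from 16 of 19 (replicate 3 or 5 left out) to 20 of 22 (replicate 1 left out). Over all genes kept, 10981 of 15030, 10118 of 15126 and 10735 of 15235 were called without replicates 3, 5 and 1. With DESeq2 size factors or library totals the number of receptor genes stayed 17. Relations with marker scores gave 0 adjusted calls under the alternatives, which says nothing on stability since 5 or 6 libraries allow few small p-values; the 9 unadjusted calls became 13 without replicate 1, 5 without replicate 3, 4 without replicate 4 and 5 without replicate 5. The 5 pair differences described kept their direction and, with another pseudocount or without length scaling, their call, but with 5 libraries the sign-flip test cannot pass 0.05, so leaving out a replicate says nothing on their calls. These differences were taken between genes within each library. No pairing of samples across conditions was possible because all samples belong to 1 group. Genes under about 10 counts per library, among them members of the GABA-A and metabotropic families, are limited by depth.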
